A study of Mus musculus with 18 samples.

Results

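The levels of 9 genes of retinoic acid metabolism, binding and reception were followed in mouse embryonic stem (ES) cells grown as 3D cultures in Matrigel. The genes were chosen by symbol from the 49671 genes of the count table, of which 31411 had a count in at least 1 sample. They are Aldh1a2 and Aldh1a3 (synthesis), Dhrs3 and Cyp26a1 (removal of precursor and product), Crabp1 and Crabp2 (binding) and Rara, Rarb and Rarg (receptors). All 9 had counts, but Cyp26a1 and Rarb were too low to be tested in any comparison, and Dhrs3 was too low in the Esrrb line.

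Poly(A) RNA of 18 samples was sequenced, 3 in each of 6 groups. All lines had been kept in 2i with Lif before the experiment, and all 3D cultures were in N2B27 medium. Wild-type E14 ES cells at passage 20 were grown for 48 h with DMSO, the solvent, with CH (3 µM CHIR99021, a Gsk3 inhibitor that activates Wnt/β-catenin signalling), with 2i (3 µM CHIR99021 and 0.4 µM PD0325901, a Mek inhibitor), or with Fgf2 at 12 ng/ml together with Activin A at 20 ng/ml (Fgf2/Activin). Esrrb fl/fl ES cells at passage 25, with an Acr-EGFP transgenic strain label and a tamoxifen-inducible Cre (MerCreMer, its promoter not given in the sources used here), were grown for 24 h in CH either untreated (Esrrb NT) or after 1 day of 4OHT, the agent that induces the Cre (Esrrb 4OHT). Both Esrrb groups carry the Cre and the floxed alleles, the 4OHT treatment was not given to cells without them, and no group received the Mek inhibitor alone. Line, passage and culture time all differ between the Esrrb line and the E14 cells, so their parts in any difference between these sets cannot be told apart. The labels name no retinoid among the additions, and retinoids were not measured. The study states in general that its experiments were repeated independently, but neither the labels nor the methods say of these samples whether replicates were separate cultures. The p-values therefore measure only the spread between these samples, which may be technical.

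Cells make retinoic acid from retinol in 2 oxidation steps. Retinol dehydrogenases such as Rdh10 form retinaldehyde, which Dhrs3 can reduce back to retinol, and the retinaldehyde dehydrogenases Aldh1a2 and Aldh1a3 form retinoic acid. Crabp1 and Crabp2 bind it inside the cell, Crabp2 being known to hand it to the receptors, and Cyp26a1 breaks it down. The receptors Rara, Rarb and Rarg pair with retinoid X receptors on response elements in DNA, and Cyp26a1 and Rarb are themselves classical target genes. In ES cells retinoic acid is best known as an agent of differentiation.

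Libraries held 25388139 to 37158661 counts in the E14 cultures and 19915222 to 20140699 in the Esrrb line. Replicate 1 stood apart in every group: over genes, its counts differed from those of replicates 2 and 3 by a chi-square per gene of 11.8 to 65.9, against 1.46 to 8.57 between replicates 2 and 3. Values without replicate 1 are given where they matter. Each of 8 markers of pluripotent cells was above 5 CPM (counts scaled by library size) on average in every group, but their levels differed between groups. Nanog had 2.76 to 68.2 CPM in DMSO and 250 to 362 CPM in CH, and Zfp42 had means of 42.7 and 400 CPM. Utf1 (684 and 245 CPM) and Lin28a (989 and 630 CPM) went the other way. Esrrb itself had 1211 to 1333 counts in the Esrrb 4OHT samples and 2109 to 2680 in Esrrb NT. Its log2 fold change was -0.99 (adjusted p = 7.44e-05, edgeR's quasi-likelihood test). Reads of the gene were thus fewer but still present in the samples labelled 4OHT. The study shows depletion of the Esrrb protein after this treatment by western blot, and calls the treated cells Esrrb null. Reads were counted over the whole gene, which cannot tell intact from recombined transcripts. How complete the deletion was could therefore not be judged from these counts. These are bulk samples, in which fewer cells of a type and less RNA per cell cannot be told apart.

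The promoters of Cyp26a1 and Rarb are shown because both hold the motif that retinoic acid receptors are best known to bind, a direct repeat with a 5-base gap (DR5). Each half-site was searched, on both strands, as A or G, then G, then G or T, then TCA. Among RefSeq promoter windows of GRCm38.p6, from 250 bases before to 50 after a start site, 32 of 32851 (0.0974%) held a DR5. Windows were found for 7 of the 9 genes (13 windows), and 2 of these 13 held one. They are the windows of Cyp26a1 (chr19:37697736-37697832, plus strand) and Rarb (chr14:16575473-16575569, minus strand). The repeat lies at positions -32 to -16 from the start of Cyp26a1, on the opposite strand. For Rarb it lies at -53 to -37 from the RefSeq start site of the window. That start site is inside the annotated span of Rarb given below, not at its upstream end. Capitals mark the half-sites, and both sequences run 5′ to 3′ along the gene.
Cyp26a1: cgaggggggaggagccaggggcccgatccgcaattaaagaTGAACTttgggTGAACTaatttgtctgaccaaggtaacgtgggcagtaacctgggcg
Rarb: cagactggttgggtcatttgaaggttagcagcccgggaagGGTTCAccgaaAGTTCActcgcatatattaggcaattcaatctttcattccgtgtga
None of the 13 windows held the same half-sites with a 2-base gap (0.268% of all windows), with a 1-base gap (0.222%), the Tcf/Lef motif CTTTGAT (3.73%) or the Esrrb motif TCAAGGTCA (0.423%). The variant CTTTGAA (5.14% of all windows) was found in 2 overlapping windows of Dhrs3. A match describes the letters only, and no binding was measured. Promoter windows of Aldh1a3 and Crabp2 were not analysed here.

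Cyp26a1 and Rarb, the genes of these promoters, were both at or near the limit of detection. Rarb (chr14:16430839-16819156, minus strand) had at most 4 counts in any sample, and 38.4% of its exon length overlaps genes on the opposite strand (Gm48162 and Top2b). Reads were counted without regard to strand, so even these counts may not be its own. Cyp26a1 (chr19:37697798-37701536, plus strand) had 13, 0 and 3 counts in DMSO, 0 in each Fgf2/Activin sample, 0, 1 and 1 in CH, 0, 0 and 1 in 2i, 2, 1 and 1 in Esrrb NT and 3, 3 and 1 in Esrrb 4OHT. Only 1 DMSO sample, replicate 1, was above 3 counts. A count of 0 allows up to 3 counts, which for Cyp26a1 in Fgf2/Activin is 0.0901 to 0.105 CPM, for counting error only. Differences in Cyp26a1 below that level were not detectable at this depth.

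**Figure D1:**
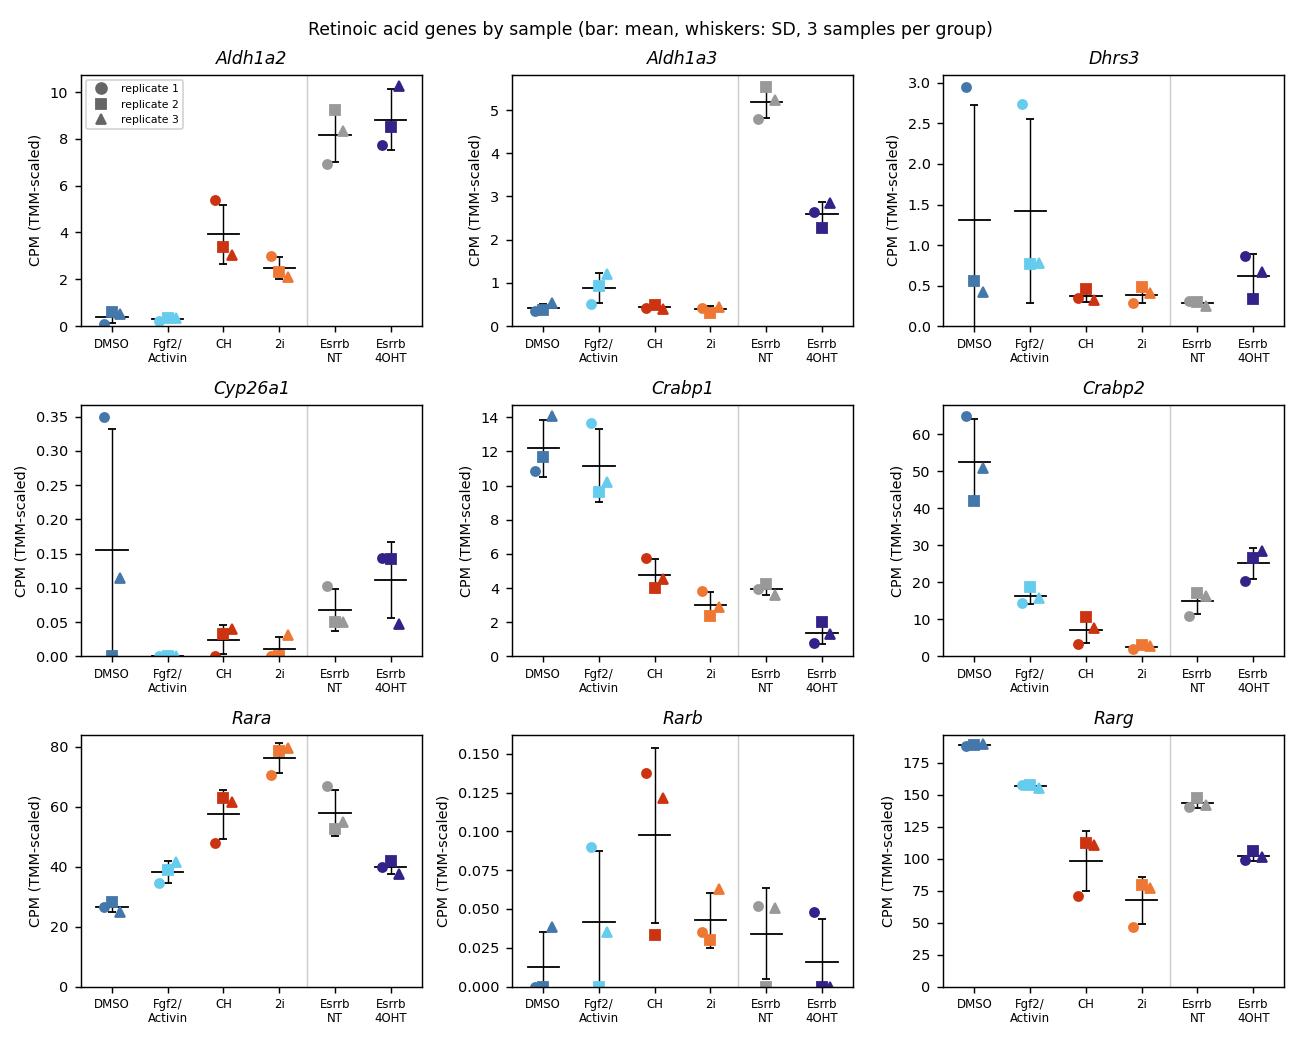
Level of each of the 9 genes (vertical axes, CPM scaled by TMM over all 18 libraries, each panel from 0) in the 6 groups, with a symbol per replicate, a bar at the mean of 3 samples and whiskers of 1 SD. Aldh1a2 was at most 0.593 CPM in the DMSO and Fgf2/Activin samples and at least 2.11 CPM in all others, whereas Rara and Rarg run in opposite orders over the 4 E14 groups.

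Aldh1a2, the main retinaldehyde dehydrogenase of the early embryo, was higher in CH and in 2i than in the cultures without the Gsk3 inhibitor. Aldh1a2 (chr9:71215789-71296243, plus strand) had 0.107, 0.593 and 0.498 CPM in DMSO and 5.37, 3.36 and 3.04 CPM in CH. It had 0.210, 0.366 and 0.352 CPM in Fgf2/Activin and 3.00, 2.30 and 2.11 CPM in 2i. The groups did not overlap in either pair, and the low groups rest on 4 to 19 counts per sample. The log2 fold change of Aldh1a2 was 3.30 ± 0.47 (SE) between CH and DMSO (adjusted p = 0.000225) and 2.98 ± 0.48 between 2i and Fgf2/Activin (adjusted p = 0.000369, edgeR's quasi-likelihood test). Without replicate 1 of every group these were 2.52 and 2.61. Among the 6 groups the order of Aldh1a2 was Fgf2/Activin, DMSO, 2i, CH, Esrrb NT and Esrrb 4OHT, and the ranges of the first pair and of the last pair overlapped.

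Aldh1a3, a second enzyme of the same step, did not share this pattern. Aldh1a3 (chr7:66390890-66427517, minus strand) was at 0.420 ± 0.102 CPM in DMSO and 0.438 ± 0.0489 CPM in CH (SD, n = 3), with a log2 fold change of 0.06 ± 0.36 (SE). Its Fgf2/Activin samples, at 0.511, 0.931 and 1.20 CPM, lay above all 2i samples, which had 0.299 to 0.441 CPM. That difference in Aldh1a3 (log2 fold change -1.17, adjusted p = 0.0136, edgeR) missed the threshold, and passed it with a replicate block (-1.15, adjusted p = 0.00667), with at least 10 counts in every sample (-1.20), without Fgf2/Activin replicate 1 (-1.44) or without replicate 1 of every group (-1.51). Aldh1a3 was most abundant in the Esrrb line, at 4.80, 5.54 and 5.22 CPM in Esrrb NT and 2.64, 2.28 and 2.84 CPM in Esrrb 4OHT. These groups did not overlap, and Aldh1a3 fell by 1.02 on the log2 scale (SE 0.16, adjusted p = 0.000583, edgeR). The fold sits at the threshold of 1: Aldh1a3 had -0.94 without Esrrb 4OHT replicate 2, -0.98 without Esrrb NT replicate 2 and -0.995 with at least 10 counts in every sample, and was then not called. Aldh1a2 in the same samples had 6.92 to 9.22 CPM in Esrrb NT and 7.72 to 10.2 CPM in Esrrb 4OHT, which overlap (log2 fold change 0.10, adjusted p = 0.608, edgeR).

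Dhrs3 (chr4:144892827-144928209, plus strand), the retinaldehyde reductase, gave no call, and its E14 values turned on replicate 1. It had 110, 18 and 11 counts in DMSO, 91, 23 and 22 in Fgf2/Activin, 10, 14 and 8 in CH and 8, 16 and 13 in 2i. The first sample of each of the DMSO and Fgf2/Activin groups was thus far above the other two, and the DMSO and CH samples overlapped. Dhrs3 had a log2 fold change of -1.82 between CH and DMSO (adjusted p = 0.0771, edgeR) and of -0.33 without replicate 1 of every group. Between 2i and Fgf2/Activin it was -1.87 (adjusted p = 0.0585, edgeR) and -0.78 without replicate 1. In the Esrrb line Dhrs3 had 5 to 18 counts.

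Both binding proteins were lower in CH and in 2i, and Crabp2 had the widest range of the 9 genes on the log2(CPM + 1) scale. Crabp2 (chr3:87948666-87953376, plus strand) had 64.9, 42.1 and 50.9 CPM in DMSO and 3.31, 10.7 and 7.55 CPM in CH. In Fgf2/Activin it had 14.5, 18.8 and 15.9 CPM, and in 2i 1.94, 3.20 and 2.68 CPM. Every sample of CH lay below every sample of DMSO, and every sample of 2i below every sample of CH and of Fgf2/Activin. Crabp2 fell by 2.89 on the log2 scale in CH against DMSO (SE 0.35, adjusted p = 7.68e-05) and by 2.65 in 2i against Fgf2/Activin (SE 0.36, adjusted p = 0.000117, edgeR's quasi-likelihood test). From low to high the order of Crabp2 was 2i, CH, Esrrb NT, Fgf2/Activin, Esrrb 4OHT and DMSO, and of these neighbours Esrrb NT and Fgf2/Activin had overlapping ranges.

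Crabp1 (chr9:54764748-54773110, plus strand) had 10.9, 11.7 and 14.1 CPM in DMSO and 5.79, 3.99 and 4.50 CPM in CH. Its Fgf2/Activin samples had 13.6, 9.65 and 10.2 CPM and its 2i samples 3.81, 2.39 and 2.90 CPM. Crabp1 fell by 1.38 in CH against DMSO (SE 0.22, adjusted p = 0.00052) and by 1.89 in 2i against Fgf2/Activin (SE 0.23, adjusted p = 4.40e-05, edgeR), both on the log2 scale and without overlap between the groups. DMSO and Fgf2/Activin overlapped for Crabp1 (log2 fold change -0.14). Over all 6 groups the order of Crabp1 from low to high was Esrrb 4OHT, 2i, Esrrb NT, CH, Fgf2/Activin and DMSO, and apart from that pair the ranges of 2i and Esrrb NT and of Esrrb NT and CH overlapped.

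The binding proteins of the Esrrb line went in opposite directions. Crabp1 had 3.92, 4.23 and 3.60 CPM in Esrrb NT and 0.767, 1.99 and 1.33 CPM in Esrrb 4OHT, and fell by 1.54 on the log2 scale (SE 0.28, adjusted p = 0.00169, edgeR). Crabp2 had 10.9, 17.2 and 16.3 CPM in Esrrb NT and 20.5, 26.5 and 28.4 CPM in Esrrb 4OHT. The Crabp2 groups did not overlap, and the difference passed the threshold on adjusted p but not on fold (log2 fold change 0.74 ± 0.18, adjusted p = 0.00636, edgeR). Per kilobase of exon, the ratio of Crabp2 to Crabp1 was 1.69, 2.47 and 2.75 in Esrrb NT and 16.2, 8.07 and 13.0 in Esrrb 4OHT. In the E14 cultures the ratio of Crabp2 to Crabp1 had means of 2.67 in DMSO, 0.924 in Fgf2/Activin, 0.998 in CH and 0.560 in 2i, and the latter 3 groups overlapped.

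**Figure D2:**
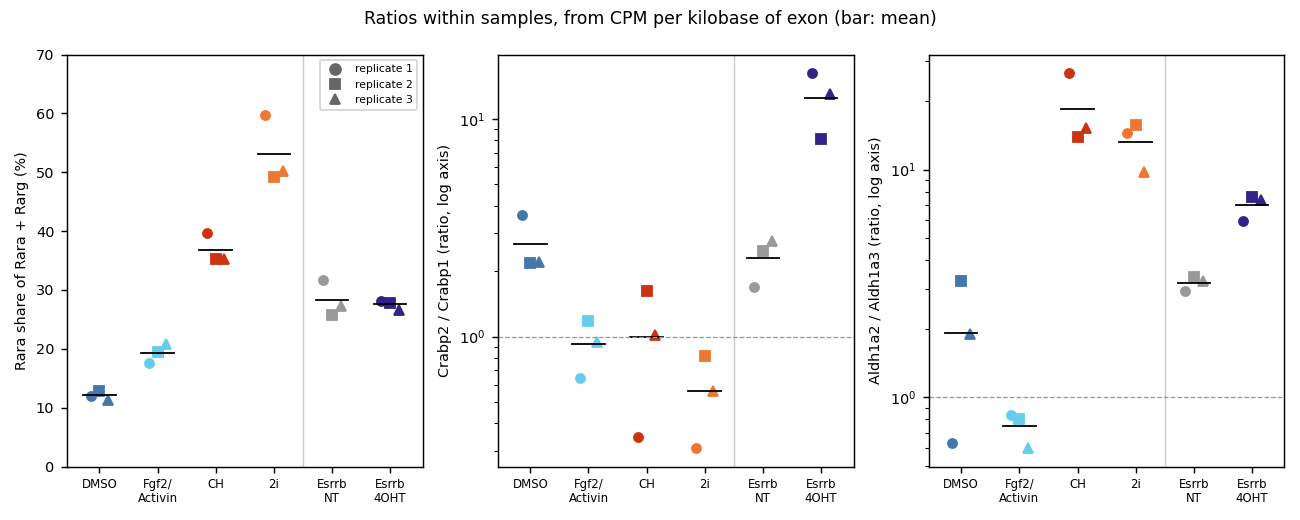
Ratios within each sample from CPM per kilobase of exon, with a symbol per replicate and a bar at the mean of 3 samples. The left panel gives Rara as a percentage of Rara plus Rarg, and the middle and right panels, on log axes, give Crabp2 over Crabp1 and Aldh1a2 over Aldh1a3. The Rara share runs from 11.4% in a DMSO sample to 59.8% in a 2i sample, and the Crabp2 to Crabp1 ratio is above 8 in the Esrrb 4OHT samples alone.

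Rara and Rarg were the receptors expressed in these cells, and they differed between cultures in opposite directions. Rara (chr11:98927818-98974942, plus strand) had 26.4, 28.4 and 25.0 CPM in DMSO, 34.5, 39.0 and 41.7 CPM in Fgf2/Activin, 48.1, 62.8 and 61.8 CPM in CH and 70.6, 78.6 and 79.6 CPM in 2i. No E14 group overlapped another. Rara was higher in CH than in DMSO (log2 fold change 1.10 ± 0.11, adjusted p = 2.51e-05, edgeR). Between 2i and Fgf2/Activin the log2 fold change of Rara was 0.99 (SE 0.11, adjusted p = 3.36e-05, edgeR), short of the fold threshold, which it passed without Fgf2/Activin replicate 3 (1.05) or without 2i replicate 1 (1.04).

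Rarg (chr15:102234938-102257517, minus strand) had 188, 189 and 190 CPM in DMSO and 157, 158 and 156 CPM in Fgf2/Activin. It had 71.2, 112 and 111 CPM in CH and 46.3, 79.2 and 77.2 CPM in 2i, with replicate 1 the lowest in both. Rarg fell by 1.22 on the log2 scale in 2i against Fgf2/Activin (SE 0.20, adjusted p = 0.000436, edgeR), and had -0.997 without replicate 1 of every group, when it was not called. Between CH and DMSO Rarg had a log2 fold change of -0.96 (SE 0.20, adjusted p = 0.00269, edgeR), which passed the fold threshold only without CH replicate 2 (-1.07) or CH replicate 3 (-1.04). Both receptors of the Esrrb line were lower in Esrrb 4OHT, each by less than the fold threshold: Rara had a log2 fold change of -0.56 (adjusted p = 0.00127) and Rarg of -0.51 (adjusted p = 4.49e-05, edgeR), with no overlap between the groups. From low to high Rara ran DMSO, Fgf2/Activin, Esrrb 4OHT, CH, Esrrb NT and 2i, and Rarg ran 2i, CH, Esrrb 4OHT, Esrrb NT, Fgf2/Activin and DMSO. Neighbours with overlapping ranges were Fgf2/Activin and Esrrb 4OHT and also CH and Esrrb NT for Rara, and 2i and CH and also CH and Esrrb 4OHT for Rarg.

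Per kilobase of exon, Rarg exceeded Rara in every DMSO, Fgf2/Activin and CH sample. The Rara share of the summed Rara and Rarg level was 12.1% ± 0.706 in DMSO, 36.8% ± 2.58 in CH and 53.1% ± 5.85 in 2i (SD, n = 3). It was 59.8%, 49.2% and 50.2% in the 2i samples, so that both receptors were at similar levels there. In the Esrrb line the Rara share was 28.3% ± 3.11 in Esrrb NT and 27.6% ± 0.822 in Esrrb 4OHT, which overlap. The summed level of Rara and Rarg was 50.4 ± 0.331 CPM per kilobase in DMSO, 36.2 ± 7.36 in CH and 33.3 ± 5.45 in 2i, and 47.0 ± 1.18 in Esrrb NT against 33.1 ± 1.22 in Esrrb 4OHT. The partner receptors Rxra, Rxrb and Rxrg summed to group means of 16.1 to 20.3 CPM per kilobase in all 6 groups.

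Counted together, 4 of the 7 genes tested were called between CH and DMSO, 2 higher (Aldh1a2, Rara) and 2 lower (Crabp1, Crabp2), where 17.7% of all 16413 genes tested were called, 7.51% higher and 10.2% lower. Between 2i and Fgf2/Activin 4 of 7 were called, 1 higher (Aldh1a2) and 3 lower (Crabp1, Crabp2, Rarg), against 23.5% of all genes, 9.13% higher and 14.4% lower. These 2 comparisons share no samples, although 1 fit estimated the spread for both. In the Esrrb line 2 of 6 were called, both lower (Aldh1a3, Crabp1), against 16.7% of 14893 genes, 12.8% higher and 3.87% lower. A call required both an adjusted p under 0.01 and a log2 fold change beyond 1 in either direction. The 9 genes were chosen with earlier results of these data known, so their shares called are not independent of these data.

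Adding the Mek inhibitor to CH, and adding Fgf2 and Activin A to the basal medium, gave no call among the 9 genes in the main edgeR fit. That fit had no replicate block, although same-numbered samples deviated together. Between 2i and CH 1.99% of all genes were called, and 4 of the 7 genes tested had an unadjusted p under 0.05 (19.7% of all genes). Crabp2 had the largest log2 fold change there (-1.46, adjusted p = 0.0333, edgeR). DESeq2 called 1 gene, Crabp2, and so did edgeR without CH replicate 1 (-1.81) or without replicate 1 of every group (-1.64). Between Fgf2/Activin and DMSO 1.25% of all genes were called, and 3 of the 7 had an unadjusted p under 0.05 (16.9% of all genes). Crabp2 again had the largest value (log2 fold change -1.69, adjusted p = 0.0152, edgeR), and it was called with a replicate block (-1.74, adjusted p = 0.00252) and by DESeq2 (-1.69). Each of these comparisons shares samples with the comparisons of CH with DMSO and of 2i with Fgf2/Activin, so their values are not independent of those.

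**Figure D3:**
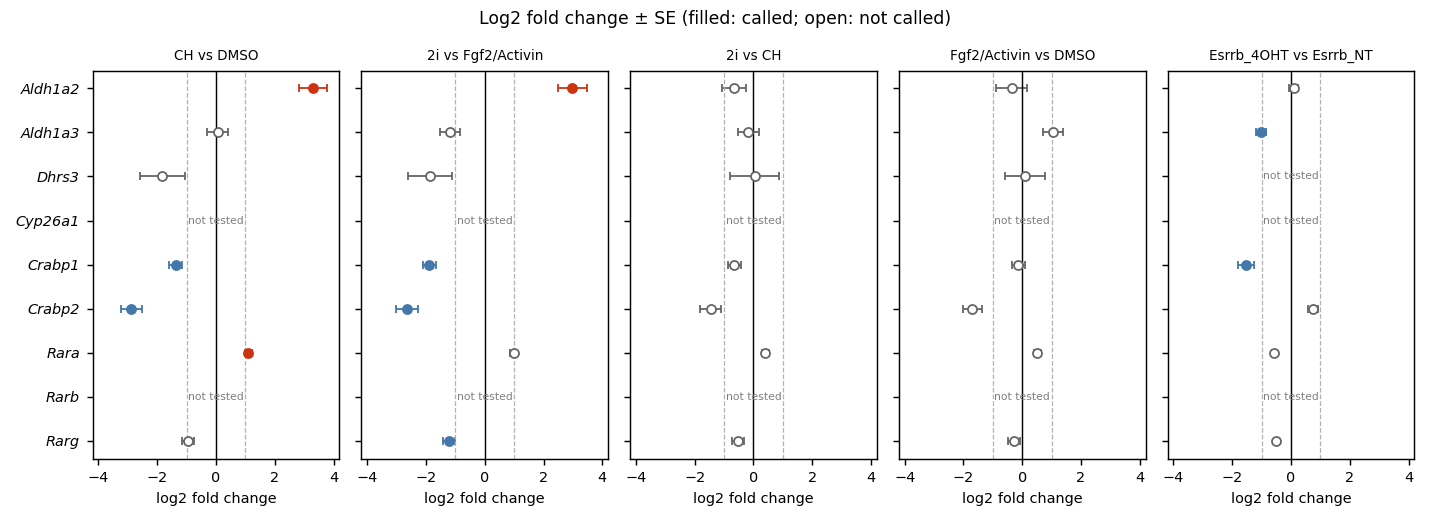
Log2 fold change (horizontal axes) of each gene in the 5 comparisons, with whiskers of 1 SE from edgeR's fit, filled symbols for called genes (red higher, blue lower) and dashed lines at -1 and 1. Aldh1a2 stands at 3.30 and 2.98 in the first and second panels, and no symbol is filled in the panels of 2i against CH and Fgf2/Activin against DMSO.

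The other genes of the pathway were read from a list of 54 genes for uptake, oxidation, breakdown, receptor partners and coregulators. Between CH and DMSO 3 were called higher and 4 lower of 35 tested, with a median log2 fold change of -0.04 against -0.002 for all genes. That is 20% of the list, near the 17.7% of all genes. Stra6, the cell surface receptor for retinol uptake, had 50 to 200 counts in DMSO and 1 to 4 in CH (log2 fold change -4.92 ± 0.75, adjusted p = 0.000372). The plasma carrier Rbp4 (-1.95 ± 0.37) and the cellular retinol-binding protein Rbp7 (-2.14 ± 0.32, adjusted p = 0.000295, edgeR) fell as well, from 30 to 52 and from 58 to 66 counts in DMSO.

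Between 2i and Fgf2/Activin 5 of the 35 were called higher and 6 lower (median 0.09 against 0.002 for all genes), 31.4% of the list against 23.5% of all genes. Stra6 had 1, 0 and 0 counts in 2i and 49 to 172 in Fgf2/Activin, at least 31.4-fold lower against a floor of 3 counts per library. Rbp4 (-3.94), Rbp7 (-3.91) and Rxrg (-4.33), the third retinoid X receptor, also fell on the log2 scale, to between 1 and 6 counts per 2i sample. The Rxrg value had an adjusted p of 0.00845 (edgeR), and its Fgf2/Activin samples ranged from 19 to 92 counts. Between 2i and CH 1 of 35 was called (2.86% against 1.99% of all genes), Fabp5, a fatty acid-binding protein that also binds retinoic acid, which fell by 1.62 on the log2 scale from 14.9 ± 0.241 to 4.84 ± 0.636 CPM (SD, n = 3). Between Fgf2/Activin and DMSO 0 of 35 were called by edgeR without a replicate block, 1 with it and 1 by DESeq2. Without the block 6 had an unadjusted p under 0.05, as had 16.9% of all genes.

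Of 34 pathway genes tested in the Esrrb line 2 were called higher and 2 lower (median -0.06 against 0.002 for all genes). That is 11.8% of the list, below the 16.7% of all genes. Stra6 rose from 2 to 4 counts in Esrrb NT to 15 to 23 in Esrrb 4OHT (log2 fold change 2.50 ± 0.37, adjusted p = 0.000486). It passed the filter on low counts through the Esrrb 4OHT samples alone. Rdh10, the main retinol dehydrogenase of the embryo, rose from 9.52 ± 0.542 to 24.9 ± 1.65 CPM (SD, n = 3; log2 fold change 1.37 ± 0.10 SE, adjusted p = 1.06e-05, edgeR). The carotene-cleaving enzyme Bco1 fell by 1.93 on the log2 scale, from 29 to 51 counts to 9 to 14. Akr1b8, an aldo-keto reductase, fell by 1.22, from 42.0 ± 1.14 to 18.3 ± 2.78 CPM. Akr1b8 has close relatives in the genome, and sequence shared between genes was examined only for the 9 genes.

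A second list held 34 genes known to respond to retinoic acid in embryonic cells, 5 of them also in the pathway list. Between CH and DMSO 8 of 21 tested were called higher and 4 lower (median 0.26 against -0.002 for all genes), 57.1% of those tested against 17.7% of all genes. Cdx1 had no counts in DMSO and 563 to 1054 in CH, at least 287-fold higher against 3 counts per library. Hoxb1 (at least 29.4-fold) and Hoxa3 (at least 11.6-fold) were likewise near 0 in DMSO. Cdx1, Hoxb1 and Hoxa3 were near 0 in Fgf2/Activin too, so they were among the 21 tested only through CH or 2i. Shares called in both lists, and over all genes, are therefore not independent of the filter on low counts. Both lists were also chosen with earlier results of these data known. Their shares against all genes, in every comparison, are thus not independent of these data. Cdx1 is also a known target of Wnt signalling, which CH activates directly. Markers of other cell types also differed between these cultures. The summed level of 6 mesendoderm markers was 9.01 to 14.1 CPM in DMSO and 11.7 to 17.9 in Fgf2/Activin, mostly Eomes, and 448 to 679 in CH and 84.3 to 119 in 2i, mostly T, itself a known Wnt target. Eomes went the other way, with means of 11.4 CPM in DMSO, 14.4 in Fgf2/Activin, 2.74 in CH and 3.86 in 2i. The sum of 7 trophoblast markers was 22.8 to 32.0 CPM in DMSO and 78.3 to 122 in CH, where Cdx2 had a mean of 64.5 CPM. Tfap2a was higher too, with means of 1.44 CPM in DMSO and 26.9 in CH. Krt7, with means of 13.6 CPM in DMSO and 1.10 in CH, and Eomes, which is also on this list, went the other way. Gata3, Elf5 and Hand1 had means of at most 0.572 CPM in both groups. The sum of 6 neural markers, mostly Nes and Tubb3, was 127 to 183 CPM in DMSO and 35.7 to 57.0 in CH. The part of these markers in the results was not tested.

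Between 2i and Fgf2/Activin 6 of 21 response genes were called higher and 5 lower (52.4% against 23.5% of all genes; median 0.87, or 0 with the 5 genes of at most 3 counts in a group set to their bound). Cdx1 was at least 116-fold higher, and Meis2 had a log2 fold change of 4.92 ± 0.73, while Stra6 fell as above. Between 2i and CH 1 gene was called higher, Skida1 (1.70), and 3 lower (19% of 21 against 1.99% of all genes), with a median of -0.58, or -0.28 at the bounds. Among those lower were Hoxb1 (at least 29.3-fold) and Hoxa3 (at least 11.6-fold), which passed the filter through the CH samples alone. Between Fgf2/Activin and DMSO 0 of 21 were called by edgeR without a replicate block, 1 with it and 1 by DESeq2. Without the block 6 had an unadjusted p under 0.05 (16.9% of all genes). Of the Esrrb line's 17 tested response genes 5 were called higher and 2 lower (median 0.52 against 0.002 for all genes), 41.2% against 16.7% of all genes. Those higher included Zfp703 (3.23 ± 0.23), Nr2f2 (2.94 ± 0.44) and Stra6, on the log2 scale. Nr2f2 had 1 to 4 counts in Esrrb NT and 19 to 31 in Esrrb 4OHT. Nr2f2 and Stra6 passed the filter on low counts through the Esrrb 4OHT samples alone, so the share is not independent of that filter. Exons of Hoxa3 (27.1%), Zfp703 (13.5%) and Nr2f2 (7.46%) overlap other genes, mostly on the opposite strand. The mesendoderm markers summed to 51.4 to 74.6 CPM in Esrrb NT and 332 to 486 CPM in Esrrb 4OHT, mostly T in both. The neural markers summed to 53.3 to 59.1 and 218 to 224 CPM, but the higher sum was that of Nes, with means of 30.4 and 205 CPM, while Tubb3 had 16.7 and 5.73 CPM, and Pax6 and Sox1 were also lower in Esrrb 4OHT on average. Their part in these results was not tested.

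**Figure D4:**
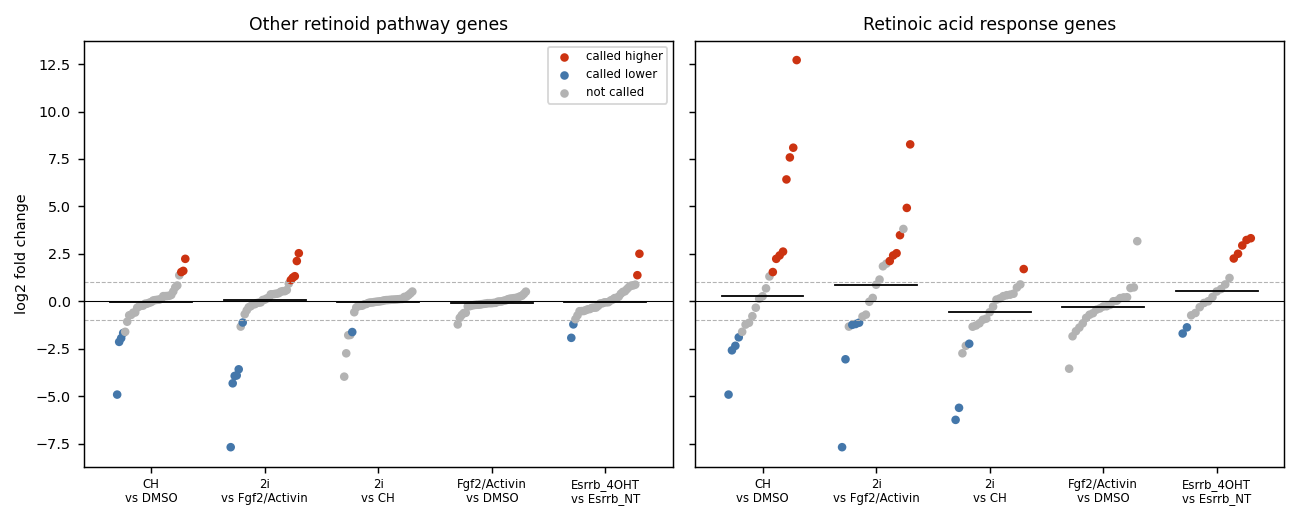
Log2 fold change (vertical axis, as fitted by edgeR) of every tested gene of the pathway list (left) and the response list (right) in the 5 comparisons, in rising order, with a bar at the median. Fitted values of genes with no counts in a group, such as Cdx1 at the top of the CH against DMSO column, depend on the fit and are not bounds, and no gene is called in the Fgf2/Activin against DMSO column.

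For the 3 genes with the widest range of group means, the genes with the nearest profile were found over the 6 groups among 11540 genes, as the root mean square difference of centred log2(CPM + 1) means. Nearest to Crabp2 were Pim2 (0.396) and Sema6b (0.407). Pim2, a kinase gene, had means of 799 CPM in DMSO, 410 in Fgf2/Activin, 134 in CH and 42.9 in 2i. The rise of Crabp2 from a mean of 14.8 CPM in Esrrb NT to 25.1 in Esrrb 4OHT was not shared by Pim2, with means of 243 and 231 CPM. Nearest to Aldh1a2 were Klhl13 (0.223) and Ripk3 (0.231), and nearest to Crabp1 were Cass4 (0.162) and Matn3 (0.211). Klhl13 had means of 39.1 CPM in DMSO, 125 in CH and 265 in Esrrb NT, with Aldh1a2 at 0.399, 3.93 and 8.15 CPM in these groups. The added 1 CPM damps differences at the low level of Aldh1a2 more than at that of Klhl13. Their folds on the CPM scale therefore differ more than these profiles do.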

How the data were processed

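RNA of 18 mouse samples was measured. The authors used TopHat2 and mm10 for alignment and HTSeq, set to ignore strand although the kit was directional, for counting on Ensembl GRCm38 genes, and deposited raw whole-number counts. The Ensembl release is not given in the sources used here. Groups and replicate numbers came from the labels. The 9 genes and both gene lists were chosen with earlier results of these data known.

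From the counts, edgeR 4.0.16 (R 4.3.3) was run with TMM, filterByExpr, glmQLFit and glmQLFTest on all genes. The 12 E14 samples (16413 genes) and the 6 samples of the Esrrb line (14893 genes) were fitted apart. P-values were adjusted over all genes tested (Benjamini-Hochberg), and a call required an adjusted p under 0.01 and a log2 fold change beyond 1 in either direction. The SE is the size of the log2 fold change divided by the square root of F. Plotted and quoted CPM used TMM over all 18 libraries. The fits were also tested on simulated data.

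Positions and exon lengths are from GENCODE M21 (GRCm38), and promoters from RefSeq. With blastn 2.17.0, none of the 9 genes shared 75 bases at 95% identity with another gene. Named genes are the 9, the 4 called genes of each list with the largest change per comparison, the 2 nearest profiles for each of 3 genes (a group mean of at least 5 CPM), Esrrb and markers. Some genes that meet this rule are not reported here. Gene-level precision is limited by library totals of 19915222 to 37158661 counts, and the floor of 3 counts reflects counting error alone.

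Same-numbered samples deviated together: over 18 pairs of E14 samples the correlation of deviations was 0.374 to 0.821 across genes, and over 3 pairs of the Esrrb line 0.266 to 0.512, so the numbers were taken to pair samples. The fits that gave the main values, calls and shares had no replicate block and so ignore this pairing. The replicate block is an alternative, beside DESeq2 1.42.0 and its size factors, no filter, at least 10 counts in every sample, the 6 compared samples alone, each replicate left out and, chosen after seeing the data, replicate 1 of every group left out.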

Additional observations from a re-analysis of the deposited data

How the results depend on the processing

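Of 34 tests of single genes among the 9, 10 gave a call, and 122 of 126 alternatives of those 10 kept it with none reversed. The exceptions were Aldh1a3 in the Esrrb line and Rarg in 2i, given above. Low counts limit Aldh1a2, Aldh1a3 and Dhrs3 in the E14 cultures, and Cyp26a1 and Rarb everywhere. The causes of the changes below were not tested, but a stricter filter tests fewer genes. The numbers tested in these alternatives are not given here, so their counts were not read against a share of all genes. With at least 10 counts in every sample, calls moved to 1755 of all genes, 4 of the pathway list and 6 of the response list for CH against DMSO (from 2907, 7 and 12), to 2332, 7 and 6 for 2i against Fgf2/Activin (from 3857, 11 and 11), to 1 of the response list for 2i against CH (from 4), and to 1 of the 9 genes, 2 pathway and 3 response genes in the Esrrb line (from 2, 4 and 7).

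For 2i against CH, 326 genes were called in all, 597 with DESeq2 (1 of the 9 genes, 2 of the pathway list), 672 with the replicate block (3 of the pathway list) and 100 with the 6 samples alone (2 of the response list). For Fgf2/Activin against DMSO, 205 were called in all, 374 with DESeq2 and 424 with the replicate block (each with 1 of the 9 genes and 1 of each list), and 87 with the 6 samples alone (1 of the 9 genes). Without a filter 1 of the 9 genes was called there. Beyond the values given, the block changed no other call among the 9 genes.

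Without replicate 1 of every group, 11 pathway genes were called for CH against DMSO (from 7). For 2i against CH there were then 768 calls, with 1 of the 9 genes, 3 pathway and 9 response genes, and for Fgf2/Activin against DMSO 499, with 1, 2 and 3.

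Leaving out 1 replicate at a time, calls over all genes ranged from 144 to 275 for 2i against CH and from 112 to 171 for Fgf2/Activin against DMSO. Calls among the 9 genes ranged from 0 to 1 for 2i against CH, where CH replicate 1 decided it, and from 1 to 2 in the Esrrb line, and those of the response list from 2 to 4 for 2i against CH, where leaving out any 2i replicate gave 2. Log2 fold changes that crossed 0 were not called in any of these fits, and ranged from -0.065 to 0.27 for Aldh1a3 in CH against DMSO, from -0.12 to 0.23 for Dhrs3 in 2i against CH, from -0.81 to 1.52 for Dhrs3 and from -0.85 to 0.094 for Aldh1a2 in Fgf2/Activin against DMSO, and from -0.019 to 0.18 for Aldh1a2 in the Esrrb line.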
